A study of Homo sapiens with 12 samples.

Results

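HIF1A, EPAS1, VEGFA, ADM, NDRG1, ANKRD37, BNIP3, EGLN3, P4HA1 and CA9 are 2 subunits of the hypoxia-inducible factors (HIFs) and 8 of the genes that these factors switch on. They were taken by gene symbol, as 10 of the 23398 entries of the deposited table, and 8 of the 10 passed the filter on low counts. EGLN3 and CA9 did not pass it and were not tested. Messenger RNA was sequenced in bulk from human brain microvascular endothelial cells (HBMEC), which line the capillaries of the brain. They were primary cells bought from a supplier, and the sources used here do not give the number of donors or cultures. All libraries came from cells transfected for 48 h. The siRNA was either siGlut1, directed at the glucose transporter gene SLC2A1, or a non-silencing one, and the medium was either control or high glucose, whose concentration the sources used here do not state. The groups are called non-silencing control (n = 3), siGlut1 control (n = 3), non-silencing high (n = 2) and siGlut1 high (n = 3), and a number after the name is the replicate. Values of single libraries stand in the order of replicates 1, 2 and 3 (1 and 3 in non-silencing high).

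The design asks what suppression of Glut1 does to the transcriptome, and whether it differs between the media. HIFs are dimers of an alpha subunit, such as HIF1A or EPAS1 (also called HIF-2 alpha), and the shared partner ARNT. In oxygen, prolyl hydroxylases of the EGLN family mark the alpha subunit for destruction through VHL, so that the factors are controlled chiefly as proteins and the level of alpha mRNA does not measure their activity. When oxygen is short, the dimer binds a short core of letters, ACGTG or GCGTG, near its target genes and raises glucose uptake, glycolysis and signals for vessel growth. EPAS1 is prominent in endothelium, and VEGFA and ADM (adrenomedullin) are secreted signals that act on it.

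Deposited counts over genes totalled 40135082 to 90536476 per library (median 49686182), and all of them are even numbers. A column named as the second replicate of non-silencing high was left out because 23397 of 23398 of its entries equal the average of the group's replicates 1 and 3, including 10 of 10 for the genes above. SLC2A1 was 22.2 to 25.7 CPM (counts scaled to a common library size) in non-silencing control and 6.26 to 9.05 CPM in siGlut1 control, and 20.7 to 21.2 against 6.38 to 7.19 CPM in high glucose. Of 12 endothelial markers all were detected, among them CDH5 at 1458 to 1924 CPM and VWF at 861 to 2547 CPM. Of 5 markers each of astrocytes, epithelium and leukocytes, AQP4 and CDH1 were at 0 in 11 of 11 libraries and PTPRC reached at most 0.118 CPM, while GJA1 of the astrocyte list was at 346 to 445 CPM, KRT18, KRT19 and KRT8 of the epithelial list at 231 to 286, 33.5 to 110.0 and 9.22 to 17.6 CPM, and CD68 of the leukocyte list at 37.9 to 73.0 CPM. Of the markers of pericytes and smooth muscle, PDGFRB reached at most 0.363 CPM and CSPG4 at most 0.202 CPM. KCNJ8 and DES were at 0 in 9 and 7 of 11 libraries, while RGS5 was at 1491 to 2420 CPM and ACTA2 at 19.0 to 23.5 CPM. The remaining markers of that list reached at most 2.72 CPM. COL1A2 of the fibroblast list was at 4.32 to 37.1 CPM, and no other marker of it passed 2.13 CPM. As the labels do not say that replicates were separate cultures, p-values cover only the spread between these libraries, which may be technical.

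Promoter sequence is shown for 4 of the targets because the pathway acts through the core motif. RefSeq windows were found for 8 of the 10 genes. VEGFA and NDRG1 had no entry. The windows hold the 250 bases before the RefSeq start on GRCh38.p14, written 5' to 3' along the gene, and capitals mark ACGTG or GCGTG on either strand (read as CACGT or CACGC on the other one, with both strands overlapping in CACGTG). The first is the one of BNIP3, a mitochondrial protein that drives mitophagy, at chr10:131981924-131982173 on the minus strand, with 6 matches. ANKRD37, a small ankyrin repeat protein, follows at chr4:185396591-185396840 on the plus strand, with 3. P4HA1, the catalytic subunit of a collagen prolyl hydroxylase, is at chr10:73096867-73097116 on the minus strand, with 1, and CA9, a carbonic anhydrase at the cell surface, at chr9:35673678-35673927 on the plus strand, with 1.
BNIP3: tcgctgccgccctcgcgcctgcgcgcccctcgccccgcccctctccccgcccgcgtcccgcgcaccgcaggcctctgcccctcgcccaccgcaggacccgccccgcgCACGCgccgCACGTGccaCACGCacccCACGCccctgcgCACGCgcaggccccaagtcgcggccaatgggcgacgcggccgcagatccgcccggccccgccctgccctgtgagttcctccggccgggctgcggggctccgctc
ANKRD37: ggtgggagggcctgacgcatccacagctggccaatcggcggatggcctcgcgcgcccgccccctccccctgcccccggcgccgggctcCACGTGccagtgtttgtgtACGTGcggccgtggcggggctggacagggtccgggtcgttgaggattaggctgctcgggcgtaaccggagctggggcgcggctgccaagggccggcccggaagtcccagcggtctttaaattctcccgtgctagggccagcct
P4HA1: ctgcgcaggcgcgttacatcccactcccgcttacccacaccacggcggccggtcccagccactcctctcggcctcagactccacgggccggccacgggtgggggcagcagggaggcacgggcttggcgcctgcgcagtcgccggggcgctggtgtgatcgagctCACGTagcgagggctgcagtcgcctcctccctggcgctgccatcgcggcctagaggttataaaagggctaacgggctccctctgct
CA9: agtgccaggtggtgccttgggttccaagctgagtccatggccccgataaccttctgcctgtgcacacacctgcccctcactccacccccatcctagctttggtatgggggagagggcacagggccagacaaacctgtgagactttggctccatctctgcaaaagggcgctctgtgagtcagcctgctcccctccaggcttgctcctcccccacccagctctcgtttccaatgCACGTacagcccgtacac

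A window of this length held at least 1 match in 43.2% of 35116 RefSeq windows, and an ACGTG on either strand in 18.5%. EPAS1 and ADM held 1 match each and EGLN3 held 0. HIF1A has a pair of windows, with 1 match in the one that starts at 61695263 and 0 in the one that starts at 61697462 of chromosome 14. A match is only a run of letters, and binding was not measured. CA9, whose window holds 1 match, reached at most 0.174 CPM in any library.

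Levels between genes were compared on the deposited RPKM scale, which divides by gene length, over the 11 libraries. EPAS1 was the highest, with a median of 139.5 RPKM (range 102.7 to 174.6), and HIF1A was next at 80.5 RPKM (69.8 to 90.6). These 2 ranges do not overlap, and the ratio of EPAS1 to HIF1A was above 1 in every library, from 1.28 in non-silencing control 3 to 2.29 in siGlut1 control 2. BNIP3 had a median of 28.4 RPKM (26.6 to 37.8) and was above ADM in 11 of 11 libraries, although the 2 ranges overlap. ADM (21.8 RPKM, 16.5 to 27.3), NDRG1 (21.0 RPKM, 18.2 to 25.5) and P4HA1 (20.7 RPKM, 17.3 to 22.7) cannot be ordered: ADM was above NDRG1 in 7 of 11 libraries and NDRG1 above P4HA1 in 7 of 11. VEGFA stood lower, at a median of 3.43 RPKM (2.77 to 4.46), and ANKRD37 lower again at 0.969 RPKM (0.556 to 1.41). CA9 (0.0417 RPKM, 0 to 0.106) and EGLN3 (0.0175 RPKM, 0 to 0.0559) were at the bottom, and CA9 was above EGLN3 in 7 of 11 libraries.

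**Figure D1:**
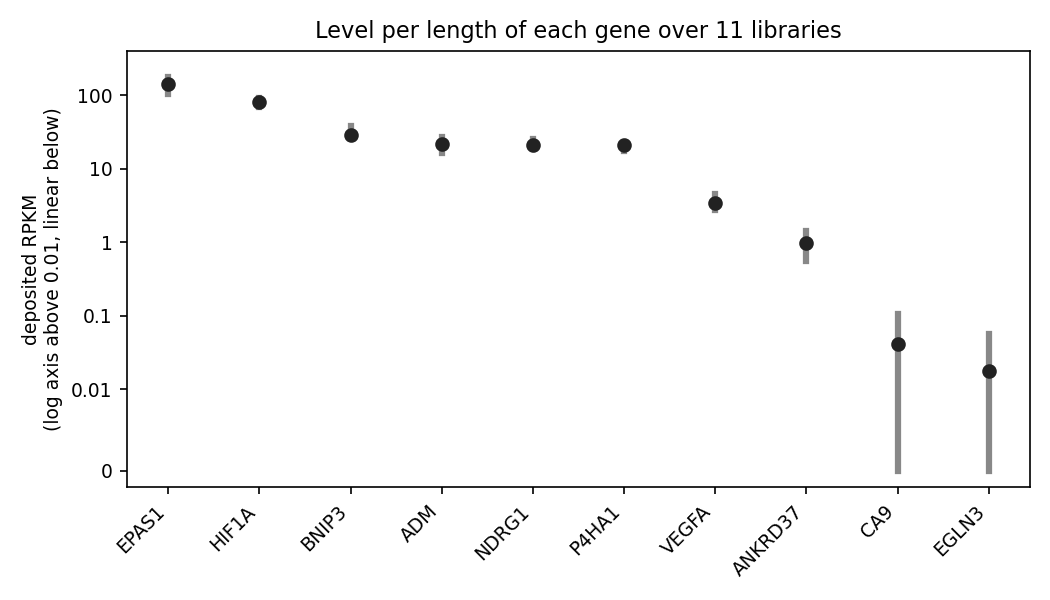
Deposited RPKM of the 10 genes over 11 libraries, with the median as a point and the lowest to highest library as a bar, on a vertical axis that is logarithmic above 0.01 and linear below it. EPAS1 and HIF1A lie above the other 8 genes without overlap, and CA9 and EGLN3 reach 0.

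HIF1A (chromosome 14, 62162119 to 62214977, hg19), the broadly expressed alpha subunit, was 363, 421 and 364 CPM across non-silencing control and 346, 330 and 324 CPM across siGlut1 control. With high glucose the level was 414 and 408 CPM across non-silencing high and 394, 376 and 340 CPM across siGlut1 high. In both media every siGlut1 library was below every non-silencing one. The log2 fold change with siGlut1 was -0.20 ± 0.077 SE in control glucose (adjusted p = 0.208) and -0.15 ± 0.086 SE in high glucose (adjusted p = 0.347). Averaged over both media it was -0.17 ± 0.058 SE, or 11.4% less, with an adjusted p of 0.067, which is not past the threshold of 0.05. The value passed it in 5 of 20 alternatives, in a range of 0.0302 to 0.183 over all of them. These were DESeq2 (adjusted p = 0.0376), the replicate number as a block (0.0465), the table with the left-out column (0.0302), removal of the trend with gene length (0.0389) and the fit without non-silencing control 3 (-0.19, adjusted p = 0.0438). HIF1A overlaps the antisense entry HIF1A-AS2, which had 0 to 4 counts.

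EPAS1 (chromosome 2, 46524541 to 46613842), an alpha subunit prominent in endothelium, differed widely between replicates. It was 784, 966 and 546 CPM across non-silencing control, and 888, 889 and 584 CPM across siGlut1 control. The lowest library of each control-glucose group was thus its replicate 3. Among the cell type markers, these 2 libraries were also the lowest of the 11 for VWF (861 and 892 CPM). They were the highest for KRT19 (109 and 110 CPM), and a link with EPAS1 was not tested. With high glucose EPAS1 was 750 and 684 CPM across non-silencing high and 877, 678 and 735 CPM across siGlut1 high, so that all groups overlap. The averaged log2 fold change with siGlut1 was 0.065 with a 95% interval of -0.27 to 0.40 (adjusted p = 0.813). The 2 alpha subunits therefore had group means of 765 ± 211 (SD, n = 3) and 787 ± 176 (SD, n = 3) CPM for EPAS1, and 383 ± 33.3 (SD, n = 3) and 334 ± 11.4 (SD, n = 3) CPM for HIF1A, in non-silencing and siGlut1 control.

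BNIP3 and NDRG1 were the 2 of 8 tested genes called with siGlut1, or 25% against 14.4% of all genes. They were called when the siRNA effect was averaged over both media, and in neither medium alone. BNIP3 fell and NDRG1 rose with siGlut1, to 45.6 CPM from 55.2 CPM and to 84.1 CPM from 72.4 CPM as means over both media. In bulk RNA, fewer cells of a type and less RNA per cell cannot be told apart.

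BNIP3 (chromosome 10, 133781204 to 133795435), whose promoter holds the 6 matches printed above, was 53.7, 46.0 and 59.3 CPM across non-silencing control and 43.9, 46.5 and 47.6 CPM across siGlut1 control. It was 56.6 and 60.5 CPM across non-silencing high and 44.0, 46.0 and 45.8 CPM across siGlut1 high. The high-glucose groups do not overlap, and in control glucose non-silencing control 2 lies among the siGlut1 libraries. Over both media the siGlut1 libraries spanned 43.9 to 47.6 CPM and the non-silencing ones 46.0 to 60.5 CPM. The averaged log2 fold change was -0.29 ± 0.066 SE, a fall of 18.1% (edgeR quasi-likelihood test with Benjamini-Hochberg adjustment, adjusted p = 0.0144). It was -0.21 ± 0.088 SE in control glucose (adjusted p = 0.252) and -0.37 ± 0.098 SE in high glucose (adjusted p = 0.0579), and the interaction, which tests the difference between the media, was -0.17 with an interval of -0.45 to 0.12 (adjusted p = 0.999). The averaged call ended without non-silencing high 3 (-0.26, adjusted p = 0.0736) and was kept in the other 19 alternatives, the adjusted p ranging from 0.000787 to 0.0736. In high glucose alone BNIP3 passed the threshold in 7 of 21 alternatives, among them DESeq2 (adjusted p = 0.0106) and the fits without non-silencing control 2 (-0.37, adjusted p = 0.0279) or 3 (-0.37, adjusted p = 0.0202), in a range of 0.0106 to 0.307.

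NDRG1 (chromosome 8, 134249414 to 134309547), a stress-response protein that hypoxia and differentiation induce, was 72.0, 75.7 and 78.8 CPM across non-silencing control and 92.7, 88.4 and 93.6 CPM across siGlut1 control. With high glucose the level was 69.1 and 66.3 CPM across non-silencing high and 69.6, 77.5 and 82.5 CPM across siGlut1 high. In each medium every siGlut1 library was above every non-silencing one, by a narrow margin in high glucose. The averaged log2 fold change was 0.23 ± 0.055 SE, a rise of 17.1% (adjusted p = 0.0190). It was 0.28 ± 0.073 SE in control glucose (adjusted p = 0.0682) and 0.18 ± 0.082 SE in high glucose (adjusted p = 0.250). The averaged call ended without non-silencing high 1 (0.24, adjusted p = 0.0606) or non-silencing high 3 (0.21, adjusted p = 0.0901), and the adjusted p ranged from 0.00204 to 0.0901 over 20 alternatives. In control glucose alone it passed the threshold with DESeq2 (0.27, adjusted p = 0.0137) and not with 19 of the 21 alternatives, in a range of 0.0137 to 0.184.

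The other 4 tested targets did not pass the threshold in any of the 7 comparisons. P4HA1 (chromosome 10, 74766980 to 74856732) was 56.0, 55.7 and 67.5 CPM across non-silencing control and 67.0, 62.5 and 66.0 CPM across siGlut1 control. With high glucose the level was 70.2 and 63.6 CPM across non-silencing high and 72.7, 71.5 and 68.9 CPM across siGlut1 high. Non-silencing control 1 and 2 are the lowest of the 11 libraries, and non-silencing control 3 lies with the rest. The averaged log2 fold change with siGlut1 was 0.11 ± 0.062 SE (adjusted p = 0.288), and without non-silencing control 3 it was 0.15 and passed the threshold (adjusted p = 0.0485, in a range of 0.0485 to 0.609 over the alternatives).

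VEGFA (chromosome 6, 43737946 to 43754223), the main growth factor for endothelium, was 13.6, 12.5 and 12.9 CPM across non-silencing control and 13.7, 17.2 and 17.3 CPM across siGlut1 control. It was 11.4 and 13.1 CPM across non-silencing high and 10.8, 12.7 and 14.4 CPM across siGlut1 high. The control-glucose groups touch without overlapping, and the high-glucose groups overlap. The log2 fold change with siGlut1 was 0.30 ± 0.13 SE in control glucose (adjusted p = 0.236) and 0.047 ± 0.14 SE in high glucose (adjusted p = 0.893). ADM (chromosome 11, 10326642 to 10328923), a vasodilator peptide, was 34.1, 38.3 and 24.7 CPM across non-silencing control and 33.9, 42.2 and 29.6 CPM across siGlut1 control. It was 32.9 and 31.5 CPM across non-silencing high and 35.1, 33.6 and 31.2 CPM across siGlut1 high, and all groups overlap. Its averaged log2 fold change with siGlut1 was 0.087, with a 95% interval of -0.17 to 0.34 (adjusted p = 0.668).

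ANKRD37 (chromosome 4, 186317840 to 186321390) was the least abundant gene tested, with 22 to 110 counts per library. It was 0.847, 0.556 and 0.814 CPM across non-silencing control and 1.06, 1.40 and 0.957 CPM across siGlut1 control, so that these groups do not overlap. With high glucose the level was 0.709 and 1.11 CPM across non-silencing high and 0.625, 1.14 and 1.11 CPM across siGlut1 high, with full overlap. The log2 fold change in control glucose was 0.62 ± 0.31 SE, with an interval of -0.052 to 1.30 (adjusted p = 0.332), too wide to tell at this depth. ANKRD37 overlaps UFSP2, which had 936 to 2322 counts, and because the sources used here do not say whether counting used strand, reads of the 2 genes cannot be told apart.

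EGLN3, a prolyl hydroxylase that HIFs themselves induce, had 4, 4 and 10 counts across non-silencing control and 2, 4 and 2 across siGlut1 control. It had 4 and 0 across non-silencing high and 0, 2 and 8 across siGlut1 high. CA9 had 4, 2 and 4 counts across non-silencing control and 2, 6 and 8 across siGlut1 control. It had 8 and 0 across non-silencing high and 6, 4 and 2 across siGlut1 high. These are near the limit that a count of 0 allows, 3 counts or 0.0332 to 0.0759 CPM depending on the library (counting error only). As all counts are even, each fragment may have been counted as 2, which was not tested, and the limit would then be 6 counts or 0.0664 to 0.152 CPM. No fold is given for either gene. EGLN3 lies at chromosome 14, 34393421 to 34420284, and CA9 at chromosome 9, 35673915 to 35681154.

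**Figure D2:**
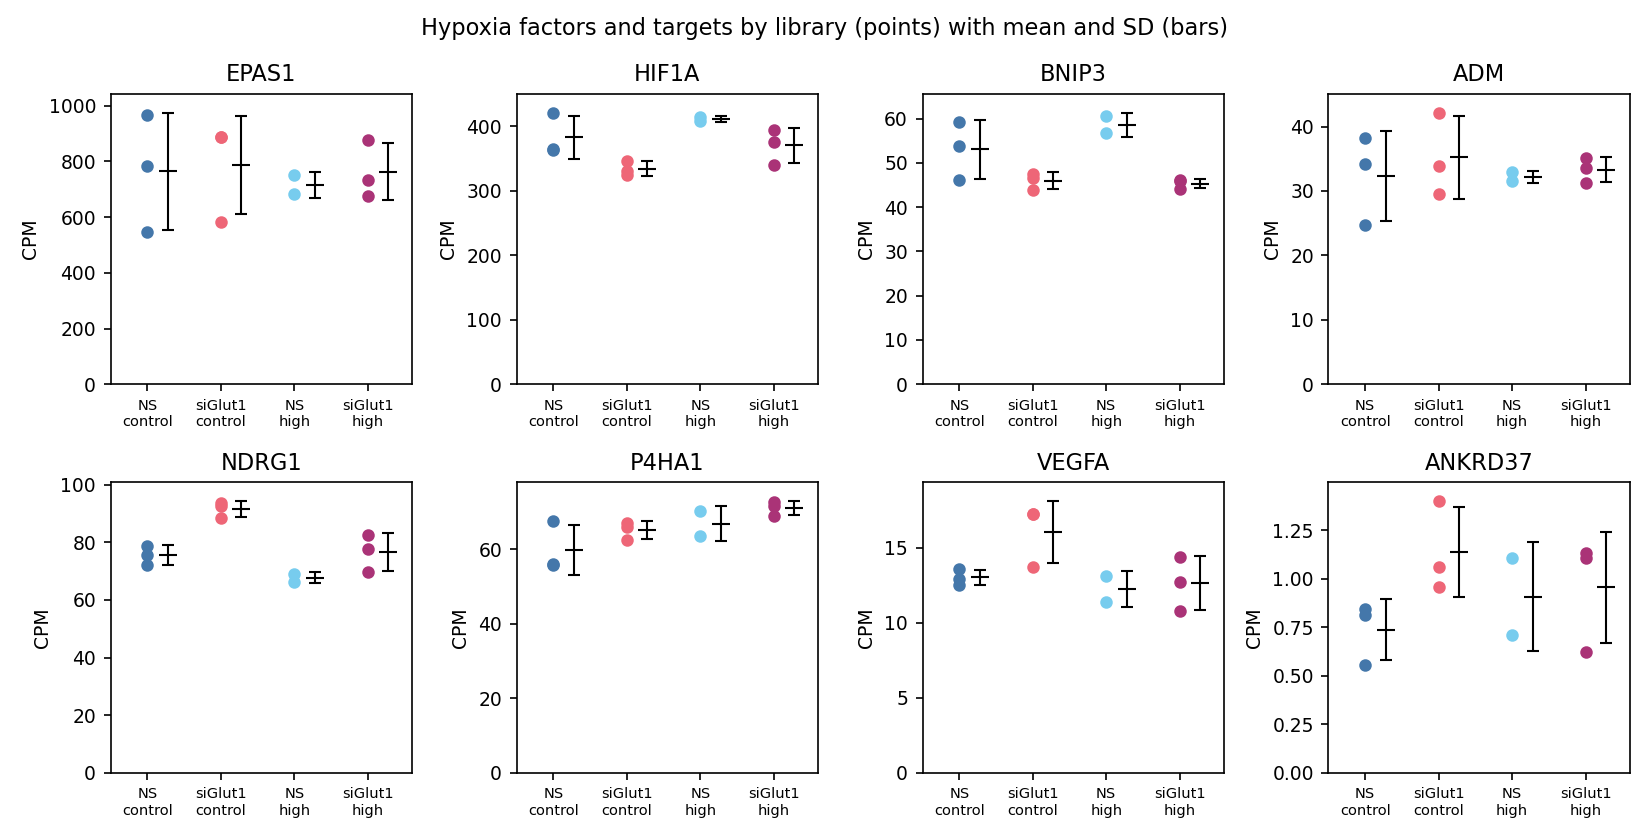
CPM of the 8 tested genes in the 11 libraries (NS, non-silencing; control and high are the media), each library as a point, with the group mean and SD as a bar beside it and each vertical axis starting at 0. BNIP3 lies between 43.9 and 47.6 CPM in all 6 siGlut1 libraries, and NDRG1 is highest in the 3 siGlut1 control libraries.

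Counted over the 8 tested genes, siGlut1 changed 0 in control glucose, where 2.96% of 14334 genes were called, and 0 in high glucose, where 4.11% were. At an unadjusted p under 0.05 there were 4 in control glucose and 1 in high glucose, against 17.4% and 20.8% of all genes. DESeq2 called 1 in each (NDRG1 and BNIP3), against 7.33% and 9.19% of all genes. Groups did not overlap for 4 of 8 genes in control glucose, against 20.5% of all genes, and for 3 of 8 in high glucose, against 44.5%. Averaged over both media 2 of 8 were called, or 25%, against 14.4% of all genes, and the groups overlapped for all 8 across media (8.69% of all genes did not). This count became 4 without non-silencing control 3, which added HIF1A and P4HA1, where 17.5% of all genes were called. It fell without non-silencing high 1 or 3, which left 1 library in that group, and the share of all genes called fell too. The median log2 fold change of the 8 was 0.13 in control glucose, 0.067 in high glucose and 0.096 on average, beside -0.0066, -0.00050 and -0.0045 over all genes tested. The 8 genes did not move one way: 6 had a positive averaged value, and HIF1A and BNIP3 a negative one.

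Among markers of other cells, 1 gene of the pericyte and smooth muscle list, RGS5, changed with the siRNA. The 9 genes of this list summed to 1846 to 2170 CPM in non-silencing control, 1517 to 1623 CPM in siGlut1 control, 2379 to 2443 CPM in non-silencing high and 1705 to 2044 CPM in siGlut1 high. RGS5, a regulator of G protein signalling, made up most of each sum and fell with siGlut1 (averaged log2 fold change -0.35, adjusted p = 0.00395), while 0 of the other 5 tested markers of this list passed the threshold. The count of 1 in 6 is 16.7% against 14.4% of all genes, and the median of the 6 was 0.069, with 4 of 6 positive. The part of RGS5 in the change of BNIP3 was not tested.

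**Figure D3:**
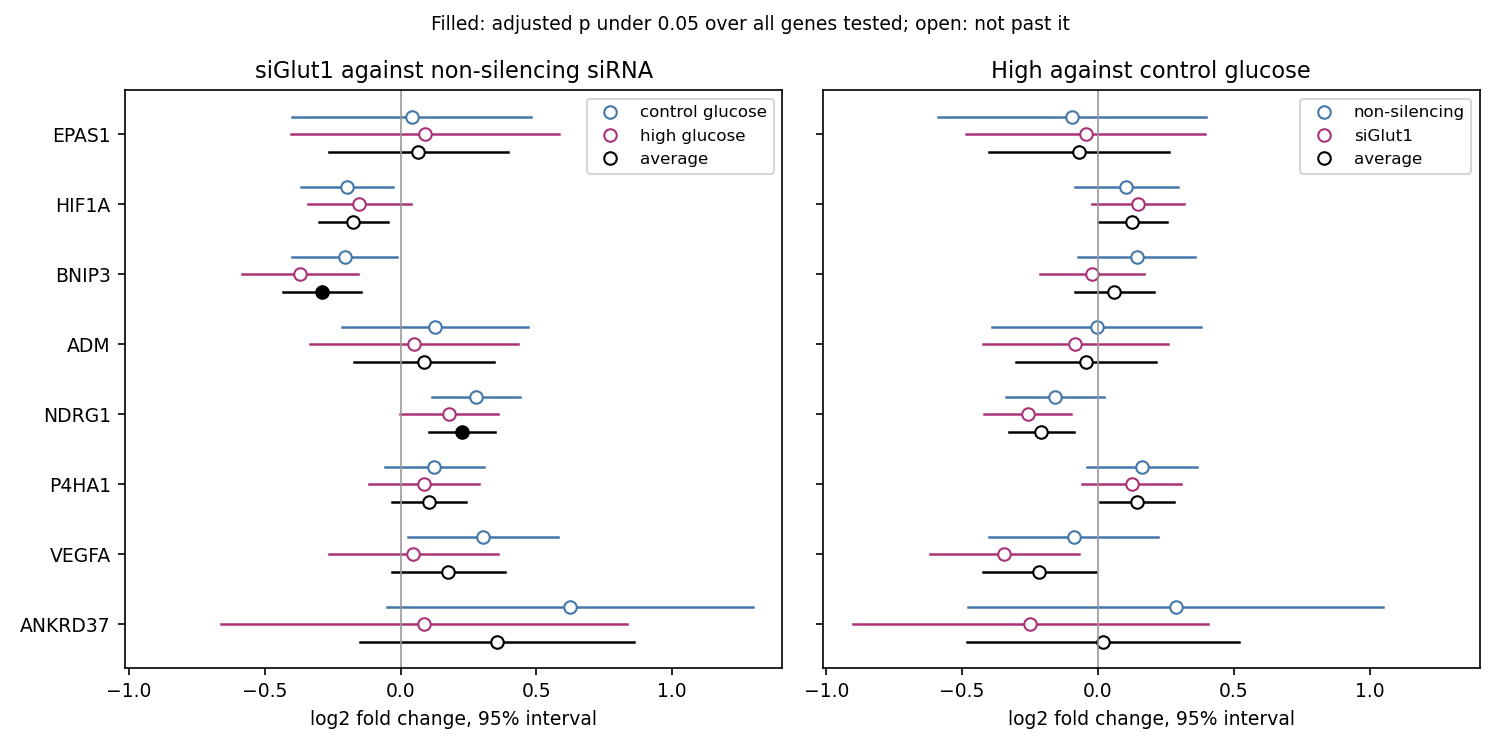
Log2 fold change with its 95% interval for the 8 tested genes, for siGlut1 against non-silencing siRNA (left) and high against control glucose (right), in each stratum and averaged. Filled points passed the threshold over all 14334 genes tested, and these are the averaged siRNA values of BNIP3 (-0.29) and NDRG1 (0.23).

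High glucose changed 0 of the 8 tested genes with non-silencing siRNA, where 0% of all genes were called, 0 with siGlut1 (0.014% of all genes) and 0 on average (0.412%). At an unadjusted p under 0.05 there were 0, 2 and 3, against 5.40%, 15.2% and 16.9% of all genes. DESeq2 called 0, 1 and 1, the call being NDRG1 both times, against 0.23%, 3.01% and 3.77% of all genes. NDRG1 was lower in high glucose with non-overlapping groups under each siRNA, at -0.16 ± 0.082 SE with non-silencing siRNA (adjusted p = 0.918) and -0.26 ± 0.073 SE with siGlut1 (adjusted p = 0.176). Averaged over both siRNAs it was -0.21 ± 0.055 SE, or 13.4% less (adjusted p = 0.127, in a range of 0.0269 to 0.407 over the alternatives). Its group means were 75.5 ± 3.39 (SD, n = 3) and 91.6 ± 2.75 (SD, n = 3) CPM in control medium, against 67.7 ± 2.0 (SD, n = 2) and 76.5 ± 6.54 (SD, n = 3) CPM in high glucose, for non-silencing siRNA and siGlut1. NDRG1 was thus the one tested member whose averaged interval left out 0 for both factors, from 0.11 to 0.35 for siGlut1 and from -0.33 to -0.087 for high glucose.

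VEGFA had an averaged glucose value of -0.22 ± 0.095 SE (adjusted p = 0.278), with -0.34 ± 0.13 SE under siGlut1 (adjusted p = 0.245), where the means were 16.1 ± 2.05 (SD, n = 3) CPM in control and 12.6 ± 1.80 (SD, n = 3) CPM in high glucose. P4HA1 had 0.14 ± 0.062 SE (adjusted p = 0.273), and passed the threshold without non-silencing control 3 (0.19, adjusted p = 0.0433), in a range of 0.0255 to 0.667 over the alternatives. HIF1A had 0.13 ± 0.058 SE (adjusted p = 0.296), and this interval narrowly included 0, while its averaged siGlut1 interval left out 0. BNIP3, EPAS1, ADM and ANKRD37 had averaged glucose values of 0.061, -0.069, -0.044 and 0.018, with intervals that include 0. Groups did not overlap for 1 of 8 genes with non-silencing siRNA, against 17.8% of all genes, and for 2 of 8 with siGlut1, NDRG1 lower and P4HA1 higher, against 22.5%. Pooled over both siRNAs the media overlapped for all 8, while 1.75% of all genes did not. The median of the 8 was 0.050, -0.064 and -0.013 with non-silencing siRNA, with siGlut1 and on average, beside -0.015, -0.018 and -0.014 over all genes. No interaction of siRNA and glucose was called, for 0 of 8 genes and 0% of all genes, with 0 of the 8 at an unadjusted p under 0.05 (2.75% of all genes) and 0 by DESeq2 (0% of all genes). Of the 8 interaction values ANKRD37 had the lowest, -0.54, with an interval of -1.54 to 0.47.

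The rest of the pathway was read from 3 lists of 78 genes taken from textbook knowledge, of which 77 were tested and PPFIA4 was not. The lists were chosen with earlier results of these data known, so their shares are descriptions and not an independent test. Averaged over both media, siGlut1 raised 18 and lowered 6 of the 77, or 31.2% against 14.4% of all genes (7.93% higher and 6.49% lower), and their median was 0.076. IGFBP3, which binds insulin-like growth factors, rose by 1.29 ± 0.18 SE on the log2 scale (adjusted p = 0.00107), FLT1, a receptor of VEGFA, by 0.56 ± 0.079 SE, ERO1L, which oxidises thiols in the endoplasmic reticulum, by 0.54 ± 0.075 SE, and CXCR4, a chemokine receptor, by 0.48 ± 0.064 SE. All 4 kept their calls in each of 20 alternatives. FLT1 is also on the endothelial marker list, of which 3 of 12 genes (KDR, TEK and FLT1) rose, or 25% against 14.4% of all genes. The median of these 12 was 0.086, with 7 of 12 positive and the lowest at -0.32. DDIT4, an inhibitor of mTOR signalling, fell by 0.55 ± 0.15 SE (adjusted p = 0.0335), CA12, a relative of CA9, by 0.52 ± 0.12 SE, PLOD2, a collagen lysyl hydroxylase, by 0.44 ± 0.12 SE and ARNT by 0.35 ± 0.080 SE. The ARNT and CA12 calls ended without non-silencing high 1 (-0.32 and -0.51). The PLOD2 call ended in 7 of 11 fits that left out a library and was kept only without siGlut1 control 3 or one of non-silencing control 1, 2 and 3 (-0.50 to -0.31 over all alternatives). The DDIT4 call ended in 8 of 11 and was kept only without non-silencing control 3, siGlut1 control 2 or siGlut1 high 1 (-0.67 to -0.44). The count of 24 fell without non-silencing high 1 or 3, which left 1 library in that group, and the share of all genes called fell too.

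By role, 2 of 16 subunits and regulators rose (CITED2, a competitor for the coactivator p300, and SIAH2, a ubiquitin ligase) and 2 fell, ARNT and EGLN1, the main oxygen sensor. These 4 are 25% of the list, against 14.4% of all genes. ARNT was 51.9, 60.3 and 45.9 CPM across non-silencing control and 42.1, 40.5 and 36.8 CPM across siGlut1 control. With high glucose the level was 51.4 and 46.8 CPM across non-silencing high and 43.9, 37.9 and 37.6 CPM across siGlut1 high. The siGlut1 libraries were thus all below the non-silencing ones in both media, as for HIF1A. EGLN1 fell by 0.28 ± 0.063 SE (adjusted p = 0.0125). Of 22 glycolytic targets 3 rose (GYS1, SLC2A3 and PFKP) and 0 fell, 13.6% against 14.4% of all genes. Of 39 other targets 13 rose and 4 fell, 43.6% against the same 14.4%. The list medians were -0.055, 0.080 and 0.14.

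In control glucose alone siGlut1 raised 4 of the 77 and lowered 0, or 5.19% against 2.96% of all genes, with 27 at an unadjusted p under 0.05, as were 17.4% of all genes. They were IGFBP3 (1.001 ± 0.23 SE), ERO1L (0.46 ± 0.10 SE), KLF6, a zinc finger factor (0.33 ± 0.065 SE), and the glucose transporter SLC2A3 (0.30 ± 0.069 SE). Without non-silencing high 1 or 3, which left 1 library in that group, this count and the share of all genes called both fell. The count was 0 without siGlut1 control 1 or 3 (0.917% and 1.36% of all genes) and 1 without non-silencing control 1 or 2 (0.995% and 2.17%). It was 1 without siGlut1 high 3 (1.74%), 2 without siGlut1 high 1 (2.25%), and 16 with DESeq2 (7.33%, 12 higher and 4 lower). Without non-silencing control 2 the 1 call was EGLN1, lower, and without non-silencing control 3 the 4 calls were 3 higher and ARNT lower. The SLC2A3 call ended with each library left out in turn (0.27 to 0.33). The IGFBP3 call was kept only without non-silencing control 1 or siGlut1 high 1 or 2, and ended with each of the other 8 left out (0.85 to 1.08), and the ERO1L call only without non-silencing control 3, siGlut1 control 2 or siGlut1 high 2 (0.39 to 0.48 in the other 8 fits). The KLF6 call ended when non-silencing control 1 or 2, or else siGlut1 control 1 or 3, was left out (0.30 to 0.32). In high glucose alone 7 of 77 rose and 0 fell, or 9.09% against 4.11%, led by IGFBP3 (1.58 ± 0.27 SE), FLT1 (0.72 ± 0.12 SE), CXCR4 (0.70 ± 0.097 SE) and ERO1L (0.61 ± 0.11 SE). Without non-silencing high 1 or 3, which left 1 library in that group, this count and the share of all genes called both fell. The count was 4 without siGlut1 high 2 or 3 (0.912% and 1.09% of all genes). The ERO1L call ended in both of these fits, while those of IGFBP3, FLT1 and CXCR4 were kept. With the trend with gene length removed, the FLT1 call ended. The count was 12 without non-silencing control 3 (7.55%, 11 higher and 1 lower). Calls in the lower direction also came with the replicate block (1 of 7) and DESeq2 (2 of 15). IGFBP3 was 1.6 ± 0.509 (SD, n = 3) and 3.22 ± 0.293 (SD, n = 3) CPM in non-silencing and siGlut1 control, and 1.1 ± 0.0990 (SD, n = 2) and 3.29 ± 0.630 (SD, n = 3) CPM in non-silencing and siGlut1 high.

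High glucose called 0 of the 77 with non-silencing siRNA, 0 with siGlut1 and 0 in the interaction by edgeR, with 6, 14 and 3 at an unadjusted p under 0.05, against 5.40%, 15.2% and 2.75% of all genes. DESeq2 called 0, 3 and 0 of them, against 0.23%, 3.01% and 0% of all genes. GAPDH, an abundant glycolytic enzyme, had a log2 fold change of -0.056 with non-silencing siRNA and -0.079 with siGlut1. Averaged over both siRNAs 1 of 77 was called, or 1.30% against 0.412% of all genes. This was LOX, which crosslinks collagen, at 54.9 ± 1.67 (SD, n = 3) and 61.0 ± 3.17 (SD, n = 3) CPM in control medium, against 66.3 ± 2.66 (SD, n = 2) and 80.8 ± 5.61 (SD, n = 3) CPM in high glucose, for non-silencing siRNA and siGlut1 (0.34 ± 0.054 SE, adjusted p = 0.0349). The LOX call was kept only without non-silencing control 3, siGlut1 control 1 or siGlut1 high 2 and ended with each of the other 8 libraries left out (0.32 to 0.36). The count of 1 became 8 without non-silencing control 3, where 836 of all 14265 genes were called. It became 17 without both replicates 3 of control glucose, where 18.1% of all genes were called.

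**Figure D4:**
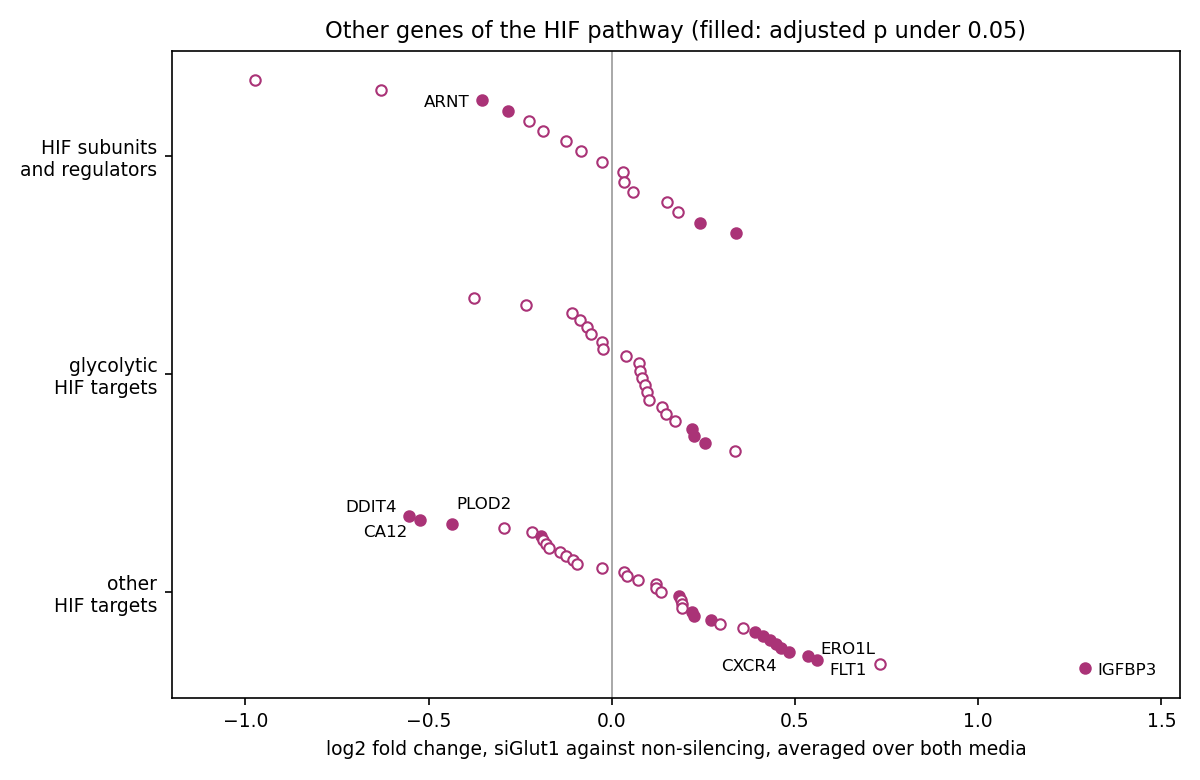
Averaged log2 fold change with siGlut1 against non-silencing siRNA (horizontal axis) for the 77 tested genes of the 3 lists, each gene a point ordered by value within its list and filled where it passed the threshold. IGFBP3 (1.29) lies apart from the other called genes, and the glycolytic list holds 3 filled points, all of them positive.

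Across the 11 libraries some pairs of the tested genes ran together or against each other, and those given here were picked by their values. Other pairs were near 0, such as NDRG1 and P4HA1 (Pearson's r of log2 CPM 0.037) and HIF1A and P4HA1 (-0.085). Pearson's r of log2 CPM between EPAS1 and ADM was 0.87, with 0.88 within groups and 0.73 over the 9 libraries without both control-glucose replicates numbered 3. HIF1A ran against NDRG1 (r = -0.85, with -0.44 within groups and -0.80 over the 9 libraries) and against VEGFA (-0.83, -0.71 and -0.78). VEGFA and NDRG1 ran together (0.76, with 0.38 within groups), and EPAS1 ran against BNIP3 (-0.55, with -0.84 within groups). Other pairs changed sign within groups, such as HIF1A and BNIP3 (0.35, with -0.77 within groups) and NDRG1 and BNIP3 (-0.53, with 0.20). All these values are descriptions over 11 libraries that share groups, depth and scaling, with no test.

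**Figure D5:**
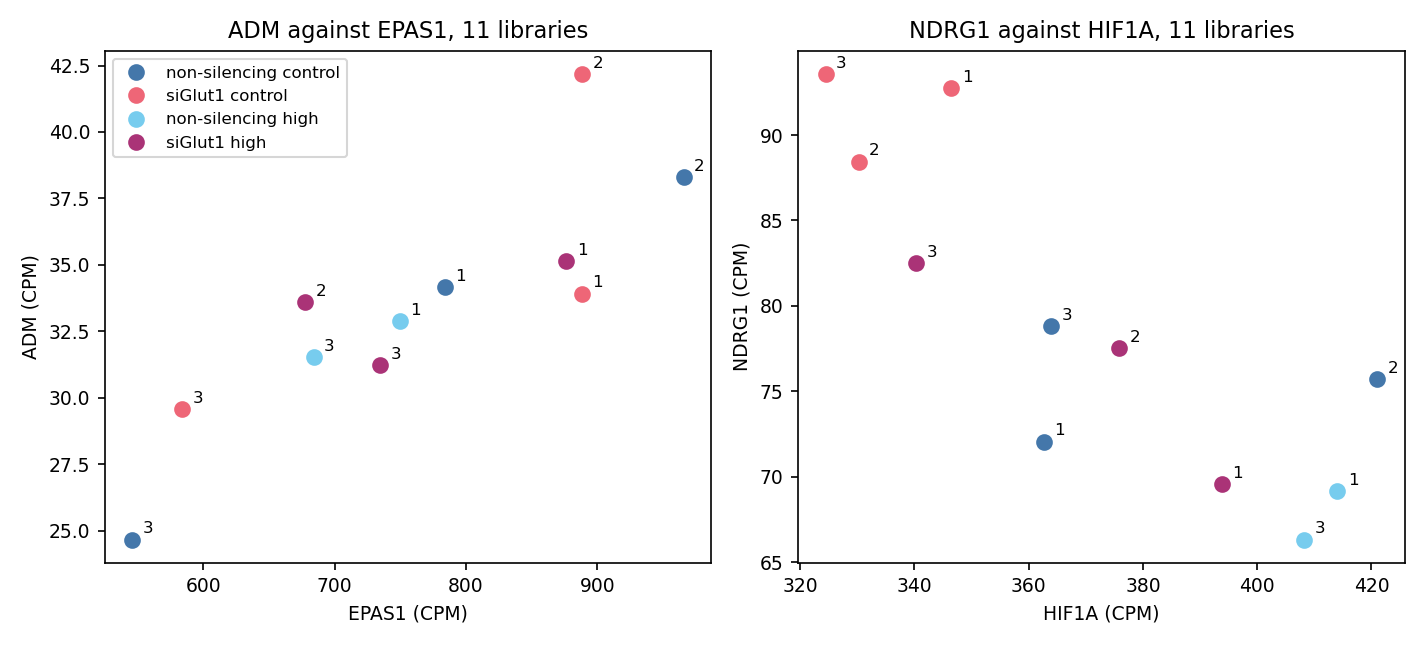
ADM against EPAS1 (left) and NDRG1 against HIF1A (right), in CPM, for the 11 libraries, coloured by group and numbered by replicate, on axes that do not start at 0. On the left non-silencing control 3 and siGlut1 control 3 lie lowest for both genes, and on the right the siGlut1 control libraries lie at low HIF1A and high NDRG1.

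The 3 genes of the set that varied most over the libraries were ANKRD37, EPAS1 and VEGFA, with an SD of log2 CPM of 0.39, 0.26 and 0.21. The genes most like EPAS1, by Pearson's r of log2 CPM over 11 libraries, were PPP1R16B and ZNF521 (both 0.99, and 0.98 and 0.99 over the 9 libraries). Those most like ANKRD37 were THOC6 and CPSF4 (0.91 and 0.88), and those most like VEGFA were IGFBP6 and GTF2H4 (0.94 and 0.92). Genes with a mean of at least 10 CPM were searched, and the highest of many values is large by selection.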

How the data were processed

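RNA was extracted with RNeasy columns, and the labels name the TruSeq stranded mRNA and SMARTER kits without saying which library used which. The build hg19 and DESeq2, with no version, are per the submitters' processing notes. Not given in the sources used here: aligner, counting tool, strand setting and annotation. The authors deposited raw whole-number counts, and the deposited RPKM values divide counts by gene length and library size, per the file headers. RPKM served only to compare genes with each other. Gene coordinates and lengths are those of the file (hg19), and promoter windows are RefSeq's on GRCh38.p14.

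Tests used R 4.3.3 and edgeR 4.0.16 on the counts of 23297 entries (101 left out for repeated symbols). After filterByExpr 14334 genes remained. Libraries were scaled by TMM (factors 0.975 to 1.03), and the 4 groups were fitted in 1 quasi-likelihood model with 7 residual degrees of freedom and a common dispersion of 0.0161, giving two-sided F tests with Benjamini-Hochberg adjustment over all genes tested and a threshold of 0.05. The standard error is the log2 fold change over the square root of F, and log2 CPM used a prior count of 2. The 7 comparisons are siRNA in each medium, glucose under each siRNA, the interaction and both averages. The script was tested on simulated data. Every column of values had a sample.

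The members and lists were chosen with earlier results of these data known. Named beside the members are SLC2A1, per comparison up to 4 listed genes per direction past the threshold with the largest change (or the 2 with most counts where none passed, of which 1 is not reported here), and the 2 genes most like each of the 3 most variable members. EGLN1, CITED2, SIAH2, GYS1, PFKP, KDR, TEK, RGS5, ACTA2, COL1A2, GJA1, KRT8, KRT18, KRT19 and CD68 were named after their values were seen. Markers of fibroblasts, astrocytes, leukocytes and epithelium gave 0 calls in any comparison. Alternatives were a replicate block, DESeq2 1.42.0 and its size factors, other filters, other sets of libraries, removal of the trend with gene length, halved counts (chosen after seeing the data) and each library left out. Spearman's correlation of log2 fold change with gene length was 0.38 for high glucose with siGlut1 and 0.39 for the interaction. It was 0.26 for high glucose on average and 0.24 for siGlut1 in high glucose. In the other comparisons it was -0.060 to 0.12, and its cause was not tested.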

Additional observations from a re-analysis of the deposited data

How the results depend on the processing

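The 8 tested genes gave 56 results (8 genes in 7 comparisons) and 1145 values over 21 alternatives. Of these, 1063 kept direction and side of the threshold, 3 lost a call, 21 gained one and 58 changed sign, the latter all in results that were not called. Of 554 values of other named genes, 469 kept both, 76 lost a call, 1 gained one and 8 changed sign. The cause of these changes was not tested. Replicates were few, with n = 2 in non-silencing high. The changes of HIF1A, VEGFA and P4HA1 did not pass the adjusted threshold in any of the 7 comparisons of the main fit. For siGlut1 on average, HIF1A passed it in 5 of 20 alternatives and P4HA1 in 1 of 20. For high glucose on average, P4HA1 passed it in 2 of 20. EGLN3 and CA9 had at most 10 and 8 counts in any library and were not tested.

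The shares in brackets are those called over all genes. For siGlut1 in control glucose, DESeq2 called 1 member and 16 other HIF genes (7.33%), all 12 columns 1 and 11 (5.84%, 2 of the 11 lower), and a fit of only the 2 groups compared called 0 other HIF genes (0.506%). For siGlut1 in high glucose, 1 member (BNIP3) was called with DESeq2, with only the 2 groups, with all 12 columns, with halved counts (4.47%) and without both replicates 3 of control glucose, and the other HIF genes called were 15 with DESeq2 (9.19%, 2 lower), 18 with only the 2 groups (8.22%, 5 lower), 15 with all 12 columns (12.8%, 2 lower) and 20 without both replicates numbered 3 (11.8%, 4 lower). For high glucose, without both replicates numbered 3 the other HIF genes called were 2 with non-silencing siRNA (0.337%), 11 with siGlut1 (5.16%) and 17 on average (18.1%), and the members called on average were 2. With siGlut1, DESeq2 called 1 member and 3 other HIF genes (3.01%), and all 12 columns 1 other HIF gene (0.255%). On average over both siRNAs, DESeq2 called 1 member and 4 other HIF genes (3.77%) and all 12 columns 1 and 3 (3.02%).

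The replicate numbers were not taken as pairing the libraries, because the labels give no shared batch. Deviations from the group means correlated at over 0.1 in 9 of 15 same-numbered pairs (-0.25 to 0.54, against -0.44 to 0.26 between other numbers). These values cannot exclude pairing, because deviations sum to 0 within each group. Those of the 2 non-silencing high libraries are thus mirror images. That 8 of 11 libraries were closest to their own number is a hint of pairing from the data, not from the design. The replicate block moved the genes called with siGlut1 on average from 2066 to 2190 and in control glucose from 424 to 560, and it turned the sign of ADM for siGlut1 in high glucose (-0.042), for high glucose with non-silencing siRNA (0.11) and on average (0.022), and of EPAS1 for high glucose with non-silencing siRNA (0.010) and in the interaction (-0.023). Only the 2 groups compared gave 0.0033 for ADM with high glucose under non-silencing siRNA. Removal of the trend with gene length gave ADM 0.0091 there, 0.017 with siGlut1, 0.013 on average and 0.0075 in the interaction, BNIP3 0.069 and GAPDH 0.0072 with siGlut1, and EPAS1 -0.017 and GAPDH 0.051 in the interaction. Without both replicates numbered 3, BNIP3 was 0.0095 for high glucose with siGlut1 and GAPDH 0.00052 in the interaction.

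With each library left out, the members called ranged from 0 to 1 for siGlut1 in high glucose, 0 to 4 for siGlut1 on average and 0 to 1 for high glucose on average. The other HIF genes called ranged from 0 to 4 and 0 to 12 for siGlut1 in control and high glucose, 13 to 27 on average, and 0 to 8 for high glucose on average. With siGlut1 in control glucose EPAS1 ranged from -0.15 to 0.25 and ADM from -0.037 to 0.27. With siGlut1 in high glucose EPAS1 ranged from -0.022 to 0.17, VEGFA from -0.060 to 0.15 and ANKRD37 from -0.20 to 0.44, and on average EPAS1 from -0.032 to 0.17. For high glucose with non-silencing siRNA EPAS1 ranged from -0.29 to 0.12, VEGFA from -0.19 to 0.011, ADM from -0.17 to 0.14 and ANKRD37 from -0.071 to 0.57. With siGlut1 EPAS1 ranged from -0.22 to 0.059, ADM from -0.19 to 0.076 and BNIP3 from -0.051 to 0.0023, and on average EPAS1 from -0.17 to 0.040, ADM from -0.13 to 0.039 and ANKRD37 from -0.16 to 0.16. In the interaction HIF1A ranged from -0.035 to 0.10, EPAS1 from -0.16 to 0.24, ADM from -0.22 to 0.085, P4HA1 from -0.14 to 0.035, GAPDH from -0.061 to 0.016 and SLC2A1 from -0.17 to 0.080.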
